A study of Mus musculus with 8 samples.

Results

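The comparison described here sets polycystic kidneys against wild-type kidneys, both under vehicle, in 4 of the 8 libraries of the series. The 2 libraries labelled PKD_DMSO and the 2 labelled WT_DMSO were chosen by their titles, and genes were kept where at least 2 of the 4 libraries reached 1 FPKM (fragments per kilobase of transcript, scaled to sequencing depth), which left 13712 of 20240 genes. Total RNA was taken with TRIzol, selected with oligo dT and made into libraries at BGI. WT_DMSO is whole kidney of wild-type mice and PKD_DMSO is whole kidney of mice with autosomal dominant polycystic kidney disease (ADPKD), all on C57BL/6 and all given DMSO, the solvent used as vehicle. The other 4 libraries come from the same genotypes given FP, which the series design names as flavopiridol, and here they enter only the estimate of spread. The mutated gene, any Cre driver, the age of the mice and the dosing are not stated in the sources used here. Nothing in the labels says that replicates are separate animals, so each p-value reflects the spread of the samples alone, which may be technical.

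In ADPKD, mutations in the genes of the polycystins, membrane proteins linked to the primary cilium of tubule cells, let tubule segments widen into fluid-filled cysts. Cyst epithelium proliferates and secretes chloride, while the interstitium around it gains immune cells and matrix. The healthy proximal tubule is the main reabsorbing and amino acid-degrading segment of the kidney, so its enzymes and carriers dominate whole-kidney RNA. In bulk RNA, fewer cells of a type and less RNA per cell cannot be told apart, and this holds for every result below.

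The summed FPKM of the 4 libraries ranged from 485924 to 572661. Values of single short transcripts moved in steps that put 1 FPKM on 1 kb at about 17.0 to 22.0 reads, with WT_DMSO replicate 1 the shallowest at 0.771 of the deepest library. Pearson correlations of log2(FPKM + 1), taken over genes that are no independent replicates, were 0.968 and 0.974 within the genotypes and 0.873 to 0.910 between them. PKD_DMSO replicate 1 stood apart by some transcripts of the neutrophil marker list, with Ltf (lactoferrin) at 86.1 FPKM against 0.15 to 0.58 in the other 3 libraries. Not all members of that list followed. Ly6g stood at 1.96 FPKM in that library against 1.55 and 3.24 in WT_DMSO, and Cxcr2 at 6.19 against 16.8 and 5.51. PKD_DMSO replicate 2 had the highest summed macrophage and fibroblast markers. Transcripts of the Y chromosome were present in all 4 libraries, with Ddx3y at 18.8 and 13.7 FPKM in WT_DMSO and 17.02 and 21.3 in PKD_DMSO. The markers of the labelled tissue were present: all 18 proximal tubule markers passed the filter.

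Differences below are log2 fold changes of FPKM + 1, PKD_DMSO over WT_DMSO, with their standard error (SE), and they understate the change of genes near 0. Of the 13712 genes, 2179 rose (15.9%) and 1104 fell (8.05%) at a Benjamini-Hochberg adjusted p under 0.05 (limma). These percentages are the background against which the gene groups below are read. The groups did not overlap, with PKD_DMSO higher, for 42.2% of all genes tested, and with PKD_DMSO lower for 24.5%. Over all genes tested the median difference was 0.13, against −0.01 when the libraries were rescaled by median of ratios or by quantiles. Genes higher in PKD_DMSO made up 66.4% of all calls as deposited, 51.9% after median-of-ratios scaling and 52.2% with quantiles. With 1 library left out, between 401 and 1105 genes rose and between 178 and 643 fell, the fewest in both directions without PKD_DMSO replicate 2. The filter let in 467 genes through the PKD_DMSO libraries alone, both wild-type values being under 1 FPKM, and 297 of these are among the genes that rose. It let in 208 through WT_DMSO alone, of which 94 fell. Such genes had to differ, and their calls are no independent support. Of those given below with values, Sprr2f, Sprr2g, Krt17, Serpina3n, Slc34a2, Arg1, Il18r1, Cd44, Fcrls, Msr1, Reg3g, Il1rn, Runx1, Cftr, Wnt7a, Arhgap36, S100a9 and the fat genes Plin4, Adipoq, Cidec and Retn came in through PKD_DMSO alone, and Defb19 through WT_DMSO alone. Further such genes are named beside the counts of symbol families and macrophage markers. Genes given below with full values kept their call in every alternative that gave a value, unless stated otherwise.

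The most abundant transcripts held a smaller share of the cystic libraries: the top 50 genes took 23.4% and 24.4% of the summed FPKM in WT_DMSO but 18.7% and 17.4% in PKD_DMSO. Much of this difference lay in Kap, the highest gene of both WT_DMSO libraries. Kap alone held 4.66% and 4.57% of the summed FPKM in WT_DMSO but 0.531% and 0.251% in PKD_DMSO. Spp1, which encodes the secreted matrix protein osteopontin (chromosome 5, 104435111 to 104441053; all coordinates are GRCm38), was listed at 1304 and 1313 FPKM in WT_DMSO and 10168 and 10813 FPKM in PKD_DMSO. It had the largest rise in FPKM of any gene, 3.002 ± 0.22 on the log2 scale (SE; adjusted p = 0.0014), and made up 2.002% and 2.23% of the PKD_DMSO totals. Clu, encoding the secreted chaperone clusterin (chromosome 14, 65968483 to 65981548), went from 143 and 237 to 2009.9 and 1648 FPKM, a rise of 3.30 ± 0.45 (adjusted p = 0.00559). On the other side, Klk1, the gene of the urinary protease tissue kallikrein (chromosome 7, 44225360 to 44229622), went from 3419 and 3535 FPKM to 537 and 371 FPKM, and S100g, encoding the calcium-binding protein calbindin-D9k, from 3486 and 3181 to 556 and 413 FPKM. Their log2 fold changes were −2.96 ± 0.21 (adjusted p = 0.0014) and −2.79 ± 0.32 (adjusted p = 0.0038). For Spp1, Clu, Klk1 and S100g the groups did not overlap. Klk1 belongs to a cluster of close paralogs, so its value is uncertain.

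Among the largest increases outside the best-known injury markers were transcripts of stratified and secretory epithelium. Sprr2f, which encodes a small proline-rich protein of the cornified envelope (chromosome 3, 92365187 to 92366442), was listed at 0.36 and 0.1 FPKM in WT_DMSO and 54.9 and 13.02 FPKM in PKD_DMSO, a log2 fold change of 4.52 ± 0.62 (SE; adjusted p = 0.00573). The PKD_DMSO libraries differed from each other but both lay above both wild-type libraries. Its neighbour Sprr2g went from 0.34 and 0.29 to 40.2 and 18.9 FPKM (4.44 ± 0.41, adjusted p = 0.00198). The Sprr2 genes are near-identical copies, so reads may have been divided between them and the value of a single copy is uncertain. The basal keratin gene Krt14 (chromosome 11, 100203162 to 100207510) went from 1.72 and 0.96 to 41.8 and 22.6 FPKM, and Krt17, a keratin of stressed and regenerating epithelium (chromosome 11, 100256215 to 100261029), from 0.19 and 0.04 to 14.3 and 11.6 FPKM. The rises were 3.78 ± 0.54 (adjusted p = 0.00636) and 3.64 ± 0.25 (adjusted p = 0.00138). Krt5, the usual partner of Krt14, stood at 5.10 and 4.45 FPKM in WT_DMSO and 57.8 and 20.6 in PKD_DMSO but was not called, and it was singled out after its values were seen. Of 9 tested markers of urothelium, the stratified lining of the renal pelvis, 0 passed the test in either direction. The sum of the urothelium list was 139 and 106 FPKM in WT_DMSO and 169 and 146 in PKD_DMSO. Krt5 is itself in this list, so its higher values are part of the PKD_DMSO sums.

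Promoter sequences of 4 genes are shown because their letters hold motifs that are described across the called genes further on: Sprr2f with an AP-1 motif, Tnfaip3 with an AP-1 and an NF-kappa-B motif, Csf1 with an NF-kappa-B motif and Aadat with an HNF4 motif. The windows run from 250 bases before to 50 bases after a RefSeq start (GRCm38.p6), are written 5′ to 3′ on the gene's strand, and carry the motif in capitals. They were picked after values and matches had been seen. The positions are chr3:92364937-92365236 on the plus strand for Sprr2f, chr10:19015361-19015660 on the minus strand for Tnfaip3, chr3:107760420-107760719 on the minus strand for Csf1 and chr8:60505874-60506173 on the plus strand for Aadat.
Sprr2f: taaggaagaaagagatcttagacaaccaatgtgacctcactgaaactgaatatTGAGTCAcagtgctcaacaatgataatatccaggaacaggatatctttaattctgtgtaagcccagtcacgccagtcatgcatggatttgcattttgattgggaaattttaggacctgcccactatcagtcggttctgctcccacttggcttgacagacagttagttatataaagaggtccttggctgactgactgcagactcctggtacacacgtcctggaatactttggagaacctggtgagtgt
Tnfaip3: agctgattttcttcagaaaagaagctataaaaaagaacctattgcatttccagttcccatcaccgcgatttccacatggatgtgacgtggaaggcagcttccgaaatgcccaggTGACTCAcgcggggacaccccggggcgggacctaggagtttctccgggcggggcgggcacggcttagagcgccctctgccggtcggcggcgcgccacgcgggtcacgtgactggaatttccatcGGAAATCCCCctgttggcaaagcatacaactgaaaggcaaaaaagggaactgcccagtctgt
Csf1: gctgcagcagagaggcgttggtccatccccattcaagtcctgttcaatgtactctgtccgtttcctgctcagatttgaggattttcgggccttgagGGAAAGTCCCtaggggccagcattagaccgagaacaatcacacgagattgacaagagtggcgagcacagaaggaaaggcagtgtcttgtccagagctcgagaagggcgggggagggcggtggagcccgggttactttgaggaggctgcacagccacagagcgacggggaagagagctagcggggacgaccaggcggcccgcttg
Aadat: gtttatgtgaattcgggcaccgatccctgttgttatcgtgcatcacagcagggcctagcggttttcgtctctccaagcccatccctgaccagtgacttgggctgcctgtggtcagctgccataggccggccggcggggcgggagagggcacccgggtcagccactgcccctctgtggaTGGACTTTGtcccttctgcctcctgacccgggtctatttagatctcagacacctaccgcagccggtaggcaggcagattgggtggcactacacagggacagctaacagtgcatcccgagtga

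Several other large increases belonged to signalling and secreted proteins. Akap12, which encodes a scaffold that anchors protein kinase A and protein kinase C (chromosome 10, 4266329 to 4359471), was listed at 6.21 and 3.4 FPKM in WT_DMSO and 81.3 and 112 FPKM in PKD_DMSO, a rise of 4.10 ± 0.33 (adjusted p = 0.00156). The protease inhibitor gene Serpina3n was listed at 0.13 and 0 FPKM in WT_DMSO and 8.75 and 28.9 FPKM in PKD_DMSO. The groups of both genes did not overlap, although the PKD_DMSO values of Serpina3n lay well apart from each other, with replicate 2 higher. Gsta1, a glutathione transferase gene with close paralogs that make its value uncertain, went from 4.25 and 2.73 to 72.4 and 45.4 FPKM (3.72 ± 0.26, adjusted p = 0.0014). Wnt7a, encoding a Wnt ligand (chromosome 6, 91363981 to 91411353), was listed at 0 in both wild-type libraries and at 3.46 and 5.23 FPKM in PKD_DMSO. It was 1 of 12 genes listed at 0 in WT_DMSO and at 2 FPKM or more in both PKD_DMSO libraries, and 2 genes showed the reverse.

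**Figure D1:**
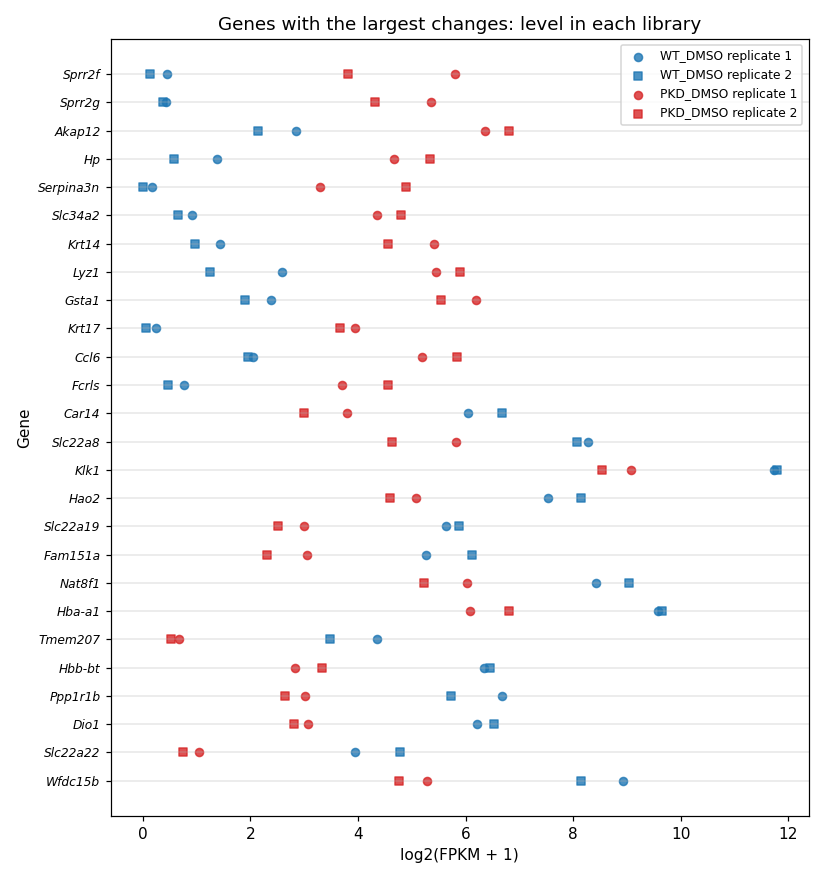
Level of 12 genes with large increases and 14 with large decreases outside the best-known markers, as log2(FPKM + 1) on the horizontal axis, with 1 point per library (blue WT_DMSO, red PKD_DMSO, circle replicate 1, square replicate 2). The red and blue points do not overlap for any gene shown; Sprr2f and Serpina3n have the widest gaps between the PKD_DMSO libraries.

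Several of the largest decreases were in transcripts of the proximal tubule that act on hormones, organic anions and alpha-hydroxy acids. Dio1, the deiodinase that activates thyroid hormone (chromosome 4, 107291465 to 107307168), went from 73.1 and 91.9 FPKM in WT_DMSO to 7.44 and 6.01 FPKM in PKD_DMSO, a log2 fold change of −3.43 ± 0.26 (adjusted p = 0.00156). Wfdc15b, encoding a small secreted protein with a whey acidic protein domain, went from 489 and 284 to 38.02 and 25.99 FPKM (−3.53 ± 0.39, adjusted p = 0.00345). Hao2, a peroxisomal hydroxyacid oxidase (chromosome 3, 98874519 to 98895376), went from 184 and 281 to 32.9 and 23.1 FPKM (−2.997 ± 0.34, adjusted p = 0.0038). Every PKD_DMSO value of these 3 genes lay below both wild-type values. Slc22a19 and Slc22a22, organic anion carriers from a cluster of close paralogs, went from 48.9 and 57.98 to 6.95 and 4.7 FPKM and from 14.3 and 26.6 to 1.05 and 0.67 FPKM. The prolactin receptor gene Prlr went from 64.4 and 80.3 to 12.5 and 7.49 FPKM (−2.77 ± 0.24, adjusted p = 0.00187). Hemoglobin transcripts, read from near-identical copies, also fell: Hba-a1 went from 765 and 806 to 67.2 and 111 FPKM and Hbb-bt from 80.2 and 87.3 to 6.1 and 9.04 FPKM, and all 5 tested erythroid markers fell with any 1 library left out, their sum being 1266 and 1458 FPKM in WT_DMSO and 154 and 222 in PKD_DMSO. Whether blood content differed at collection was not tested.

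Phosphate carriers of the SLC34 family went in opposite directions. Slc34a2, the sodium-phosphate cotransporter best known from lung and intestine (chromosome 5, 53049353 to 53071664), was listed at 0.88 and 0.58 FPKM in WT_DMSO and 19.5 and 26.8 FPKM in PKD_DMSO, a rise of 3.79 ± 0.25 (adjusted p = 0.00118). Slc34a1, the main phosphate carrier of the proximal tubule brush border (chromosome 13, 55399622 to 55414695), went from 1309.7 and 1879 to 397 and 214 FPKM, a log2 fold change of −2.42 ± 0.45 (adjusted p = 0.0135). Slc34a3, the second carrier of that membrane, went from 35.7 and 38.5 to 2.92 and 1.6 FPKM (−3.58 ± 0.34, adjusted p = 0.00212). Even in PKD_DMSO the Slc34a1 level per length stayed far above that of Slc34a2. The call of Slc34a1 ended without WT_DMSO replicate 2 (adjusted p = 0.0607) and without PKD_DMSO replicate 2 (adjusted p = 0.0939).

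Of 27 tested genes of branched-chain amino acid and propionate breakdown, 15 fell and 0 rose, with a median log2 fold change of −0.95. Of 13 genes of aromatic amino acid and histidine breakdown, 7 fell and 0 rose (median −1.03). Of 28 genes of glycine, serine, proline and lysine breakdown, 10 fell and 2 rose (median −0.85), where 8.05% of all genes fell. The other 12, 6 and 16 members of these lists were not called. The branched-chain count was 10 and 7 without WT_DMSO replicate 1 or 2, 7 and 1 without PKD_DMSO replicate 1 or 2. In the same order the aromatic count was 4, 3, 3 and 2, and the glycine to lysine count was 8, 6, 8 and 3. Beside them 7 of 18 proximal tubule markers fell (3, 2, 3 and 0 in that order), with a summed level of 9682 and 13814 FPKM in WT_DMSO and 4884 and 3259 in PKD_DMSO, and their part in these falls was not tested.

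Single enzymes of these routes show the size of the change. Aadat, which transaminates 2-aminoadipate and kynurenine (chromosome 8, 60505843 to 60545677), was listed at 288 and 407 FPKM in WT_DMSO and 55.7 and 35.7 FPKM in PKD_DMSO, a log2 fold change of −2.91 ± 0.26 (adjusted p = 0.00187). Hpd, a dioxygenase of tyrosine breakdown (chromosome 5, 123171807 to 123182723), went from 85.1 and 77.3 to 14.7 and 9.27 FPKM (−2.69 ± 0.23, adjusted p = 0.00183). Pcbd1, which recycles the pterin cofactor of phenylalanine hydroxylase, went from 362 and 414 to 127 and 97.3 FPKM (−1.79 ± 0.22, adjusted p = 0.00441). The groups did not overlap for any of these enzymes. Mcee, the methylmalonyl-CoA epimerase of propionate breakdown, had the largest fall of the branched-chain list, from 153 and 120.1 to 49.97 and 41.5 FPKM (−1.55 ± 0.19, adjusted p = 0.00421).

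**Figure D2:**
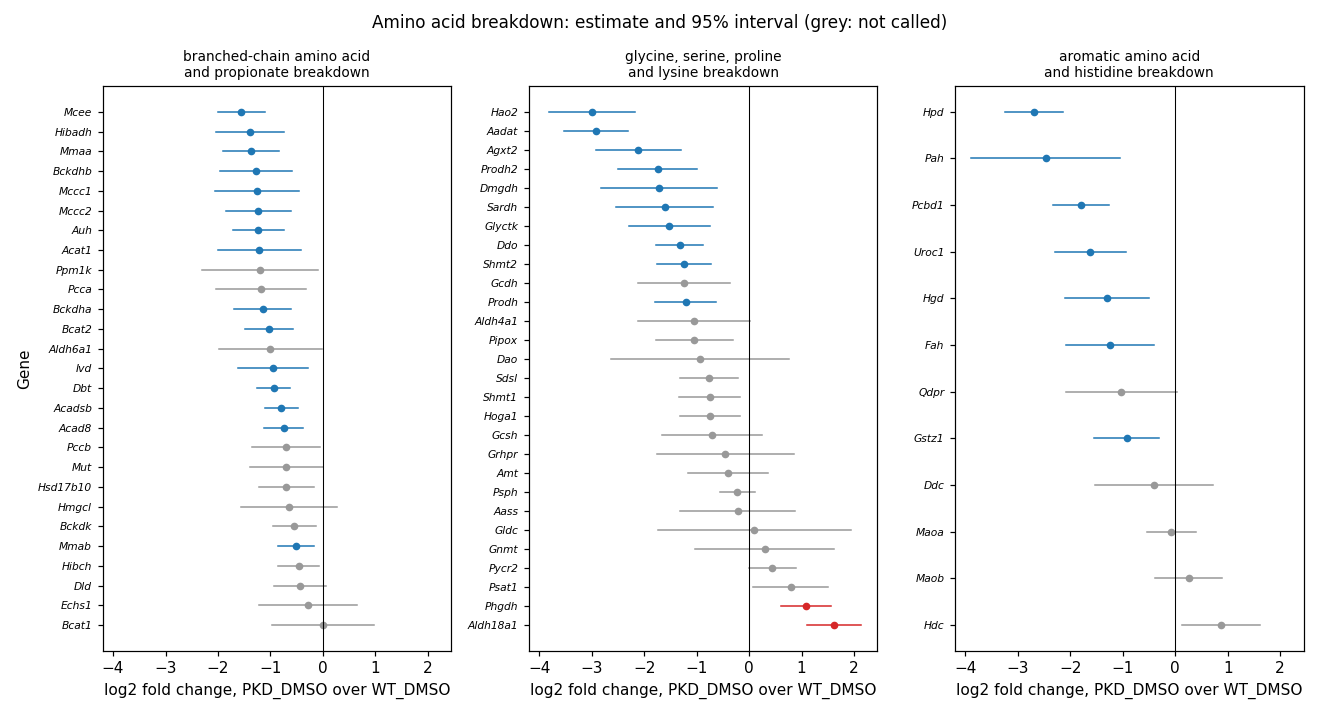
Log2 fold change of FPKM + 1 (PKD_DMSO over WT_DMSO) with its 95% interval for tested genes of 3 amino acid breakdown lists, ordered by the estimate (blue fell, red rose, grey not called). All 15 called genes of the first panel and all 7 of the third lie left of 0, while Phgdh and Aldh18a1 in the second panel lie right of 0.

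The 2 genes that rose in the glycine to lysine list make amino acids rather than break them down. Aldh18a1, which opens proline synthesis from glutamate, was listed at 2.04 and 1.19 FPKM in WT_DMSO and 6.06 and 7.93 FPKM in PKD_DMSO, a rise of 1.62 ± 0.22 (adjusted p = 0.00542). Phgdh, the first enzyme of serine synthesis, went from 17.6 and 19.6 to 35.5 and 45.8 FPKM (1.08 ± 0.20, adjusted p = 0.0135), and its call ended without WT_DMSO replicate 1 (adjusted p = 0.0592) and without PKD_DMSO replicate 2 (adjusted p = 0.101). The mitochondrial folate enzymes Mthfd2 and Mthfd1l, which pass on carbon units from serine, also rose. Mthfd2 went from 3.88 and 3.52 to 9.2 and 9.66 FPKM (1.15 ± 0.14, adjusted p = 0.00423). Mthfd1l went from 1.16 and 1.02 to 4.12 and 4.53 FPKM (1.35 ± 0.18, adjusted p = 0.00507). These were the 2 of 22 genes of sulfur amino acid and one-carbon metabolism that rose, also with any 1 library left out, against 4 that fell (2 and 1 without WT_DMSO replicate 1 or 2, 2 and 0 without PKD_DMSO replicate 1 or 2).

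Some solute carriers rose as well. Slc7a5, the large neutral amino acid exchanger, was listed at 1.87 and 1.19 FPKM in WT_DMSO and 6.32 and 10.7 FPKM in PKD_DMSO (1.89 ± 0.27, adjusted p = 0.00625). Slc25a24, a calcium-regulated carrier that exchanges ATP-magnesium for phosphate across the inner mitochondrial membrane (chromosome 3, 109123149 to 109168409), went from 2.36 and 1.82 to 23.1 and 26.5 FPKM, a rise of 3.06 ± 0.20 (adjusted p = 0.00118). Both were picked from the solute carriers with their values in view. Of 283 tested genes with symbols starting Slc, 28 rose (9.89%) and 58 fell (20.5%). The rising share was under the 15.9% of all genes tested and the falling share over the 8.05%. The Slc counts became 13 rising and 35 falling when WT_DMSO replicate 1 was left out, and 17 and 34 when replicate 2 was. They became 15 and 31 when PKD_DMSO replicate 1 was left out, and 4 and 14 when replicate 2 was. Among those that fell were Slc22a2, the organic cation carrier of the basolateral membrane (96.9 and 133 to 26.6 and 16.99 FPKM, −2.36 ± 0.33, adjusted p = 0.00595), and Slc51b, a subunit of the bile acid and steroid exporter (110.3 and 103 to 26.7 and 18.3 FPKM, −2.22 ± 0.20, adjusted p = 0.00187).

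The kidney also takes part in making creatine and NAD, and single enzymes of both routes fell. Gamt, which methylates guanidinoacetate to creatine (chromosome 10, 80258151 to 80261025), was listed at 41.7 and 37.8 FPKM in WT_DMSO and 11.3 and 7.32 FPKM in PKD_DMSO, a log2 fold change of −2.01 ± 0.24 (adjusted p = 0.004). Haao, which forms the quinolinate precursor of NAD from tryptophan (chromosome 17, 83831348 to 83848981), went from 91.05 and 129 to 23.1 and 18.5 FPKM (−2.33 ± 0.30, adjusted p = 0.00506). Afmid, an earlier enzyme of that route, went from 50.9 and 48.5 to 14.1 and 9.64 FPKM (−2.0005 ± 0.23, adjusted p = 0.00389). The wild-type and PKD_DMSO values of these 3 genes did not overlap. Over the NAD list, 6 of 28 genes fell and 2 rose. Left out in turn, WT_DMSO replicates 1 and 2 gave 3 and 3 falling genes and PKD_DMSO replicates 1 and 2 gave 4 and 2. Of 21 genes of creatine, carnitine and polyamine synthesis, 3 rose and 5 fell. With WT_DMSO replicate 1 or 2 left out the counts were 1 and 3, and 1 and 4, and with PKD_DMSO replicate 1 or 2 left out 1 and 3, and 1 and 2. Among polyamine genes, Smox, which oxidises spermine, rose from 5.31 and 3.99 to 18.9 and 15.6 FPKM (1.69 ± 0.25, adjusted p = 0.0069), and Sat2, a relative of the spermidine acetyltransferase, fell from 25.3 and 24.8 to 10.2 and 10.2 FPKM (−1.22 ± 0.15, adjusted p = 0.00423).

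Arg1, the arginase best known from liver and from macrophages (chromosome 10, 24915207 to 24927470), was listed at 0.33 and 0.41 FPKM in WT_DMSO and 8.33 and 10.9 FPKM in PKD_DMSO, a rise of 2.94 ± 0.37 (adjusted p = 0.00455). Of 17 genes of the urea cycle, arginine and ammonia, 4 rose and 0 fell, which without PKD_DMSO replicate 2 was 1 and 0. The rising share was 23.5% beside 15.9% of all genes tested, while the median log2 fold change of the list was −0.30. Ass1, the argininosuccinate synthase with which the proximal tubule makes arginine, stood at 986 and 2146 FPKM in WT_DMSO and 497 and 246 FPKM in PKD_DMSO and was not called (−2.05 ± 0.69, adjusted p = 0.071). Its wild-type values differed from each other by more than a factor of 2.

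Ketone body and acetyl-CoA genes fell in 9 of 21 cases and rose in 0, with a median of −0.69. Oxct1, the transferase that lets tissues burn ketone bodies (chromosome 15, 4026428 to 4155344), went from 293 and 351 FPKM in WT_DMSO to 95.7 and 98.95 FPKM in PKD_DMSO (−1.71 ± 0.19, adjusted p = 0.0034). Acot13, a mitochondrial acyl-CoA thioesterase, went from 267 and 279 to 108 and 77.6 FPKM (−1.56 ± 0.21, adjusted p = 0.00546), and Slc16a7, a monocarboxylate carrier, from 26.2 and 28 to 9.96 and 9.69 FPKM (−1.38 ± 0.16, adjusted p = 0.00398). With PKD_DMSO replicate 2 left out 4 members fell, with PKD_DMSO replicate 1 left out 5, and with WT_DMSO replicate 1 or 2 left out 7 or 6. Esrra, a nuclear receptor that drives genes of oxidative metabolism, was among the 7 of 39 nuclear receptors and coregulators that fell, from 78.5 and 77.04 to 40.6 and 30.2 FPKM (−1.13 ± 0.17, adjusted p = 0.0069). None of the 39 rose. That list's count was 3 and 6 without WT_DMSO replicate 1 or 2, 4 and 1 without PKD_DMSO replicate 1 or 2.

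Symbol families give a view that does not depend on a chosen pathway list. Among 43 families with at least 25 tested members, the largest shares of falling genes were in Cox, the cytochrome c oxidase subunits and assembly factors (18 of 25), Mrps (10 of 29) and Mrpl (16 of 48), the proteins of the small and large mitochondrial ribosome. As reported 0 of their members rose, while 1 Cox gene rose after quantile normalization. Mrps21 went from 483 and 411 FPKM in WT_DMSO to 162 and 131 FPKM in PKD_DMSO (−1.61 ± 0.19, adjusted p = 0.00386) and Cox6c from 1708 and 1294 to 539 and 485 FPKM (−1.54 ± 0.19, adjusted p = 0.00421). Mrps18c, a further small-subunit protein, was listed at 61.1 and 60.2 FPKM in WT_DMSO and 61.1 and 60.5 FPKM in PKD_DMSO (0.002 ± 0.13) and had the interval closest to 0 of the 1776 genes with a mean FPKM of 50 or more. The falling counts of Cox, Mrps and Mrpl were 10, 5 and 4 when WT_DMSO replicate 1 was left out and 13, 7 and 8 when replicate 2 was. They were 13, 6 and 9 when PKD_DMSO replicate 1 was left out and 4, 3 and 0 when replicate 2 was. Markers of the proximal tubule and of the thick ascending limb and distal convoluted tubule had lower sums in the same libraries. Their part in the falls of these families, of the ketone list and of the Slc genes was not tested.

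The families with the largest shares of rising genes were Col, the collagens (11 of 27), Il, the interleukins and their receptors (14 of 40), and Arhgap, a family of GTPase-activating proteins (10 of 31), where 15.9% of all genes rose. Much of the Il count came in through PKD_DMSO alone: Il7, Il21r, Il1rl2, Il18rap, Il1r2, Il1rn, Il1f6 and Il18r1. So did Col10a1, Col17a1 and Arhgap36. Such calls are no independent support, and the Il share in particular is not like that of all genes. Col8a1, a short-chain collagen, went from 1.73 and 1.58 FPKM in WT_DMSO to 7.68 and 20.4 FPKM in PKD_DMSO (2.36 ± 0.39, adjusted p = 0.00935). Il18r1, a subunit of the interleukin 18 receptor, went from 0.66 and 0.43 to 8.05 and 12.2 FPKM (2.82 ± 0.26, adjusted p = 0.00189). Arhgap36 was listed at 0 and 0.02 FPKM in WT_DMSO and 3.96 and 4.63 FPKM in PKD_DMSO. Members of these families also fell. Col27a1, a fibrillar collagen, went from 52.8 and 26.03 to 4.88 and 3.95 FPKM (−2.82 ± 0.50, adjusted p = 0.0115), and its call ended without WT_DMSO replicate 1 (adjusted p = 0.0502) and without PKD_DMSO replicate 2 (adjusted p = 0.0845). Il15, a cytokine of lymphocyte survival, went from 17.7 and 14.2 to 4.22 and 6.22 FPKM (−1.46 ± 0.26, adjusted p = 0.0115), and Il11ra1, an interleukin 11 receptor subunit, from 67.9 and 53.03 to 26.96 and 32.1 FPKM (−1.004 ± 0.17, adjusted p = 0.00945). The call of Il15 ended with WT_DMSO replicate 1 or PKD_DMSO replicate 1 left out (adjusted p = 0.0540 and 0.0549), and that of Il11ra1 with PKD_DMSO replicate 1 left out (adjusted p = 0.0507). These were the 1 collagen and the 2 Il genes that fell, and 0 Arhgap genes fell. All 6 members given with FPKM values were picked with those values in view. Summed fibroblast and pericyte markers were higher beside the collagens, at 477 and 206 FPKM in WT_DMSO and 683 and 1372 in PKD_DMSO, and their part was not tested. The rising counts of Col, Il and Arhgap were 10, 9 and 5 when WT_DMSO replicate 1 was left out and 4, 8 and 5 when replicate 2 was. They were 9, 12 and 6 when PKD_DMSO replicate 1 was left out and 3, 7 and 1 when replicate 2 was. At the other end of the size range, the 309 Zfp zinc finger genes had 15 that rose and 4 that fell, both shares below the background. After median-of-ratios scaling those counts were 11 and 14, and leaving out PKD_DMSO replicate 2 made them 1 and 0.

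**Figure D3:**
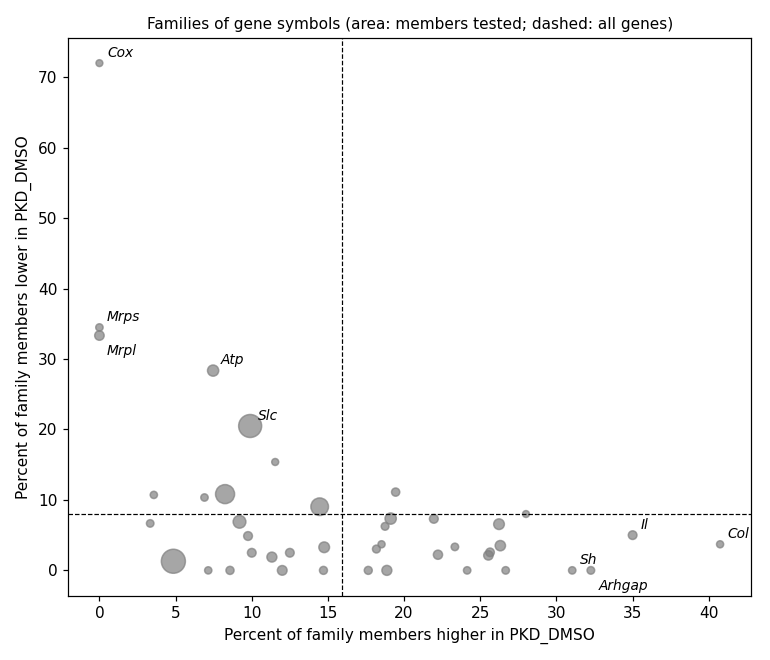
Percent of members that rose (horizontal) and fell (vertical) in PKD_DMSO for 43 families of gene symbols, with point area scaled to the number of members tested and dashed lines at the shares of all genes (15.9% and 8.05%). Cox lies alone at the top left with 72.0% of members falling, and Col lies farthest right with 40.7% rising.

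Of 56 actin cytoskeleton genes 25 rose and 1 fell (median 0.75), of 33 tubulin and microtubule genes 13 rose and 3 fell, and of 38 cadherin, desmosome and tight junction genes 17 rose and 1 fell (median 0.65). Flna, the actin crosslinker filamin A (chromosome X, 74223461 to 74249854), was listed at 20.9 and 12.03 FPKM in WT_DMSO and 79.9 and 136 FPKM in PKD_DMSO, a rise of 2.64 ± 0.35 (adjusted p = 0.00522). Espn, which bundles actin in microvilli, was the 1 actin gene that fell, from 22.6 and 24.5 to 6.78 and 5.75 FPKM (−1.76 ± 0.19, adjusted p = 0.0032). Tubb2b, a tubulin isotype of developing neurons (chromosome 13, 34127008 to 34130354), went from 15.9 and 13.8 to 96.5 and 110.1 FPKM (2.72 ± 0.22, adjusted p = 0.00156). The groups of Flna, Espn and Tubb2b did not overlap. Cdh3, encoding P-cadherin (chromosome 8, 106510852 to 106556911), went from 2.02 and 2.78 to 22.6 and 19.6 FPKM (2.71 ± 0.21, adjusted p = 0.00156), and the polarity kinase gene Prkci from 8.82 and 9.02 to 22.5 and 21.8 FPKM (1.22 ± 0.13, adjusted p = 0.00289). Macrophage and fibroblast marker sums, given with the collagens and macrophage genes, were higher in the same libraries, and their part was not tested. Median-of-ratios scaling lowered the junction count to 11. The rising counts of the actin, tubulin and junction lists were 21, 9 and 9 when WT_DMSO replicate 1 was left out and 14, 8 and 7 when replicate 2 was. They were 19, 10 and 7 when PKD_DMSO replicate 1 was left out and 7, 2 and 4 when replicate 2 was.

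Some cell-surface proteoglycans and growth factors rose. Cd44, the hyaluronan receptor, was listed at 0.79 and 0.46 FPKM in WT_DMSO and 10.7 and 9 FPKM in PKD_DMSO (2.74 ± 0.33, adjusted p = 0.00406). Sdc1, the heparan sulfate proteoglycan syndecan 1, went from 7.69 and 7.61 to 42.9 and 36.9 FPKM (2.24 ± 0.22, adjusted p = 0.00237), and Agrn, the basement membrane proteoglycan agrin, from 33.8 and 24.5 to 89.9 and 104 FPKM (1.72 ± 0.22, adjusted p = 0.00463). In all, 7 of 33 proteoglycan genes rose and 0 fell, a rising share of 21.2% beside 15.9% of all genes tested. That count was 4 and 3 without WT_DMSO replicate 1 or 2, 4 and 3 without PKD_DMSO replicate 1 or 2. Pdgfb, a platelet-derived growth factor chain, went from 14.1 and 9.68 to 46.8 and 39.8 FPKM (1.80 ± 0.25, adjusted p = 0.00585). Edn1, the precursor of the vasoconstrictor endothelin 1 (chromosome 13, 42301476 to 42307990), went from 1.67 and 1.35 to 27.1 and 24.98 FPKM (3.43 ± 0.28, adjusted p = 0.00156), opposite to the vasodilator-releasing kallikrein gene Klk1. Edn1 and Klk1 were the extremes of 29 tested kinin, endothelin, nitric oxide and natriuretic peptide genes. Of these 29 genes 2 rose (6.90%) and 3 fell (10.3%), with a median of −0.18. Of 12 endothelial markers 0 were called, and their sum was 644 and 323 FPKM in WT_DMSO and 128 and 366 in PKD_DMSO. The part of endothelial content in the Edn1 values was not tested.

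Genes of the NF-kappa-B pathway rose in 13 of 28 cases and fell in 0, a share of 46.4% with a median of 0.67. Bcl3, a nuclear member of the inhibitor family (chromosome 7, 19808462 to 19822824), was listed at 3.42 and 3.12 FPKM in WT_DMSO and 28.4 and 18.8 FPKM in PKD_DMSO (2.50 ± 0.24, adjusted p = 0.00209). Relb, a subunit of the alternative branch, went from 4.53 and 3.1 to 16.99 and 13.5 FPKM (1.76 ± 0.23, adjusted p = 0.00484). Birc3, a ubiquitin ligase that restrains cell death, went from 4.23 and 2.48 to 18.1 and 15.2 FPKM (2.04 ± 0.27, adjusted p = 0.00541). Feedback inhibitors were among the members that rose: Tnfaip3, the deubiquitinase A20, went from 1.38 and 1.57 to 8.54 and 5.33 FPKM (1.65 ± 0.28, adjusted p = 0.00998) and Nfkbie from 2.36 and 1.35 to 8.55 and 6.52 FPKM (1.59 ± 0.24, adjusted p = 0.00703). Nfkbia, the classical inhibitor, overlapped between the groups, at 106 and 47.2 FPKM in WT_DMSO and 90.8 and 70.8 in PKD_DMSO, and was not called (0.17 ± 0.42). The pathway count was 12 and 7 without WT_DMSO replicate 1 or 2, 6 and 7 without PKD_DMSO replicate 1 or 2.

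Both ligands of the macrophage receptor Csf1r rose. Csf1 was listed at 5.18 and 1.85 FPKM in WT_DMSO and 27.7 and 18.2 FPKM in PKD_DMSO (2.48 ± 0.38, adjusted p = 0.00762), and Il34 at 5.16 and 3.84 FPKM in WT_DMSO and 61.7 and 53.6 in PKD_DMSO (3.42 ± 0.20, adjusted p = 0.00118). Among leukocyte transcripts, the chemokine gene Ccl6 went from 3.16 and 2.87 to 35.6 and 56.5 FPKM (3.51 ± 0.27, adjusted p = 0.00156) and Fcrls, a gene of microglia and macrophages, from 0.71 and 0.39 to 12.04 and 22.7 FPKM (3.51 ± 0.38, adjusted p = 0.0032). Msr1, a scavenger receptor for modified lipoproteins, went from 0.33 and 0.13 to 3.85 and 8.95 FPKM (2.50 ± 0.34, adjusted p = 0.00559). For Ccl6, Fcrls and Msr1 the higher value was in PKD_DMSO replicate 2, while for Csf1 and Il34 it was in PKD_DMSO replicate 1. Of 12 macrophage markers 11 rose, 9 and 8 without WT_DMSO replicate 1 or 2, 11 and 7 without PKD_DMSO replicate 1 or 2, and their sum was 110 and 74.0 FPKM in WT_DMSO and 377 and 795 in PKD_DMSO. Of the rising markers, Adgre1, Cd163 and Itgam came in through PKD_DMSO alone, so their calls are no independent support. The part of macrophage content in the results of this paragraph, in the NF-kappa-B list and in Arg1 was not tested.

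Mucosal defence genes moved both ways, with 9 of 22 rising and 4 falling. Lyz1, a lysozyme gene with a close paralog that makes its value uncertain, was listed at 4.98 and 1.37 FPKM in WT_DMSO and 42.5 and 58.7 FPKM in PKD_DMSO (3.76 ± 0.51, adjusted p = 0.00559). Lgals3, the galectin of injured epithelium and macrophages, went from 48.8 and 38.7 to 199 and 169 FPKM (2.05 ± 0.23, adjusted p = 0.00337). Defb19, a beta-defensin, fell from 4.58 and 6.73 to 0.29 and 0.14 FPKM (−2.44 ± 0.31, adjusted p = 0.00445). Reg3g, an antibacterial lectin, was listed at 0 in both wild-type libraries and at 28.5 and 2.63 FPKM in PKD_DMSO. The high Reg3g value was in PKD_DMSO replicate 1. That library also held S100a8 at 21.2 FPKM and S100a9 at 30.3 FPKM, both of the neutrophil list, against 2.26 for both in PKD_DMSO replicate 2. The call of Reg3g ended without WT_DMSO replicate 1 (adjusted p = 0.126), WT_DMSO replicate 2 (adjusted p = 0.126) or PKD_DMSO replicate 1 (adjusted p = 0.120), and also without the filter on low values and with the 4 vehicle libraries alone. Rising members numbered 6 and 5 without WT_DMSO replicate 1 or 2, 5 and 8 without PKD_DMSO replicate 1 or 2. Among inflammasome genes, Il1rn, the interleukin 1 receptor antagonist, rose from 0.38 and 0.06 to 8.59 and 4.2 FPKM (2.55 ± 0.43, adjusted p = 0.0101), and Nlrp6, a sensor of mucosal epithelium, fell from 46.8 and 30.1 to 7.86 and 4.25 FPKM (−2.50 ± 0.30, adjusted p = 0.004).

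Of 46 transcription factors of epithelial state, 16 rose and 0 fell (34.8%, median 0.73). Maff, a small Maf factor (chromosome 15, 79346621 to 79359078), was listed at 2.16 and 1.51 FPKM in WT_DMSO and 25.1 and 21.8 FPKM in PKD_DMSO, a rise of 3.11 ± 0.32 (adjusted p = 0.00269). Klf6, a zinc finger factor induced by injury, went from 19.1 and 10.1 to 102 and 88.8 FPKM (2.69 ± 0.32, adjusted p = 0.00416), and Runx1 from 0.79 and 0.39 to 7.59 and 7.2 FPKM (2.41 ± 0.24, adjusted p = 0.00222). Hnf4a, the factor that drives proximal tubule genes, was not called although the groups did not overlap, at 125 and 171 FPKM in WT_DMSO and 100.4 and 75.5 FPKM in PKD_DMSO (−0.74 ± 0.47, adjusted p = 0.286). The count of factors that rose was 10 and 7 without WT_DMSO replicate 1 or 2, 8 and 3 without PKD_DMSO replicate 1 or 2.

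Letters of 6 motifs were counted in promoter windows on both strands, and a match describes letters only. Of the 13712 genes tested, 10764 had at least 1 window, and the windows of these genes also happen to number 13712. Each window was counted as a promoter. Windows of the same gene can overlap, so a single site can be counted more than once, as for Il1rn, Casp4 and Agxt2. No motif searched holds another. The AP-1 motif TGANTCA occurred in 7.70% of 2142 promoters of genes that rose, 5.61% of 1087 promoters of genes that fell and 5.37% of the promoters of all genes tested. Among all 32851 promoters of the table, genes not tested included, the share was 7.81%. Among 209 promoters of the genes that rose at least 4-fold it occurred in 11.5%. The NF-kappa-B motif, which reads 3 G, any 2 bases, 3 T and 2 C, occurred in 2.75% of promoters of genes that rose, 5.74% of those that rose at least 4-fold, 2.75% of those that fell at least 4-fold and 1.76% of all tested. The HNF4 motif CAAAGTCCA occurred in 4 of 109 promoters of genes that fell at least 4-fold (3.67%) and in 0.452% of all tested. Over all genes that fell its share was 0.736%, and over those that rose 0.514%. The cAMP response element TGACGTCA stood at 2.33% for genes that rose, 0.957% for those that rose at least 4-fold and 2.86% for all tested, the STAT motif TTCCNGGAA at 1.12% and 1.26%, and the HNF1 motif occurred in 1 promoter of all genes tested. In the windows printed above, the AP-1 letters begin 197 bases before the start of Sprr2f and 136 bases before that of Tnfaip3. The NF-kappa-B letters, on the opposite strand in both, begin 12 bases before the start of Tnfaip3 and 154 bases before that of Csf1, and the HNF4 letters 72 bases before that of Aadat, also on the opposite strand. No test was made of these shares. Genes that rose at least 4-fold numbered 260 and those that fell 123, with 181 to 304 rising and 55 to 139 falling when a library was left out, the fewest without PKD_DMSO replicate 2.

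Of 29 purinergic genes 6 rose (20.7%) and 2 fell (6.90%). Of 25 prostaglandin and leukotriene genes 4 rose (16%) and 2 fell (8%), close to the 15.9% and 8.05% of all genes tested. Of 24 retinoid genes 6 rose (25%) and 3 fell (12.5%). Without PKD_DMSO replicate 2 these counts were 1 and 1 for each of the 3 lists. Without PKD_DMSO replicate 1 they were 4 and 2, 3 and 2, and 2 and 3. With WT_DMSO replicate 1 left out they were 2 and 2, 3 and 1, and 3 and 2, and with its replicate 2 left out 1 and 2, 2 and 1, and 3 and 3. Cftr, the chloride channel of cyst fluid secretion, was listed at 0.45 and 0.6 FPKM in WT_DMSO and 2.78 and 3.18 FPKM in PKD_DMSO (1.38 ± 0.23, adjusted p = 0.0098), and its call ended without PKD_DMSO replicate 2 (adjusted p = 0.0736). Clic1, a chloride intracellular channel protein, went from 100.3 and 89.9 to 216 and 207 FPKM (1.15 ± 0.14, adjusted p = 0.00406). Of 27 secretion channel genes 5 rose (18.5%) and 3 fell (11.1%), which was 1 and 0 without PKD_DMSO replicate 2, 4 and 1 without PKD_DMSO replicate 1, and 3 and 1 with WT_DMSO replicate 1 or 2 left out. The shares of the secretion channel list were close to the 15.9% and 8.05% of all genes tested. Among purine genes, Panx1, the ATP-releasing channel pannexin 1, rose from 1.4 and 0.74 to 5.96 and 6.38 FPKM (1.81 ± 0.23, adjusted p = 0.00446). Entpd8, an ectonucleotidase that degrades extracellular ATP, fell from 9.93 and 8.07 to 1.54 and 1.58 FPKM (−1.96 ± 0.18, adjusted p = 0.00201). Slco2a1, the prostaglandin carrier, rose from 4.36 and 5.87 to 20.3 and 31.9 FPKM (2.12 ± 0.24, adjusted p = 0.00358), and Tbxa2r, the thromboxane receptor, fell from 6.59 and 5.94 to 0.59 and 1.33 FPKM (−1.91 ± 0.24, adjusted p = 0.00462). The values of the groups did not overlap for any of these 6 genes. Aldh1a2, which makes retinoic acid, rose from 2.76 and 2.26 to 15.3 and 32.99 FPKM (2.75 ± 0.42, adjusted p = 0.00762). Among 45 axon guidance genes 10 rose (22.2%) and 1 fell (2.22%). Sema3c rose from 9.96 and 11.9 to 32.5 and 35.4 FPKM (1.55 ± 0.18, adjusted p = 0.00355). Sema4g fell from 23.9 and 15.6 to 4.23 and 2.54 FPKM (−2.24 ± 0.31, adjusted p = 0.00603). Rising guidance genes were 7 and 6 without WT_DMSO replicate 1 or 2, 9 and 2 without PKD_DMSO replicate 1 or 2.

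Of 24 circadian clock genes 7 rose and 3 fell. Dbp, the PAR-type factor that the clock drives most directly, was listed at 82.6 and 66.6 FPKM in WT_DMSO and 23.5 and 21.3 FPKM in PKD_DMSO (−1.68 ± 0.23, adjusted p = 0.00592). Nfil3, which binds the same sites as Dbp and represses, went from 5.13 and 3.4 to 12.2 and 10.9 FPKM (1.27 ± 0.21, adjusted p = 0.0089). Nr1d2, a core repressor, went from 29.3 and 22.4 to 25.3 and 27.2 FPKM and Per1, another, from 36.8 and 18.5 to 23.3 and 27.5 FPKM, and the values of both overlapped between the groups. Without PKD_DMSO replicate 2 the clock counts were 0 and 0, and quantile normalization made them 4 and 6. Leaving out PKD_DMSO replicate 1 gave 2 and 3, leaving out WT_DMSO replicate 1 gave 5 and 2, and leaving out its replicate 2 gave 4 and 3. The calls of Dbp and Nfil3 ended without PKD_DMSO replicate 2 (adjusted p = 0.0531 and 0.0582). The time of day at collection is not stated in the sources used here.

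Several lists stayed at or under the background of 15.9% rising and 8.05% falling. Of 42 autophagy and lysosome biogenesis genes 2 rose and 1 fell, of 33 genes of the unfolded protein response 2 rose and 1 fell, of 22 genes of the insulin-like growth factor axis 2 rose and 0 fell, and of 13 Hedgehog genes 1 rose and 0 fell. Lamp1, the lysosomal membrane protein, was listed at 244 and 489 FPKM in WT_DMSO and 504 and 442 FPKM in PKD_DMSO, and Hsp90b1, a chaperone of the endoplasmic reticulum, at 229 and 244 and, in PKD_DMSO, 178 and 187 FPKM. Neither was called. Abundant genes with near-equal levels in all 4 libraries included Pcbp2, an RNA-binding protein (181 and 185 FPKM in WT_DMSO, 188 and 178 in PKD_DMSO), the splicing factor Sf3b2 (71.2 and 68.3 FPKM, then 70.1 and 70.5) and the proteasome subunit Psmc4 (77.9 and 74.8 FPKM, then 80.3 and 76.5). Under the other scalings these estimates shift with those of all genes.

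**Figure D4:**
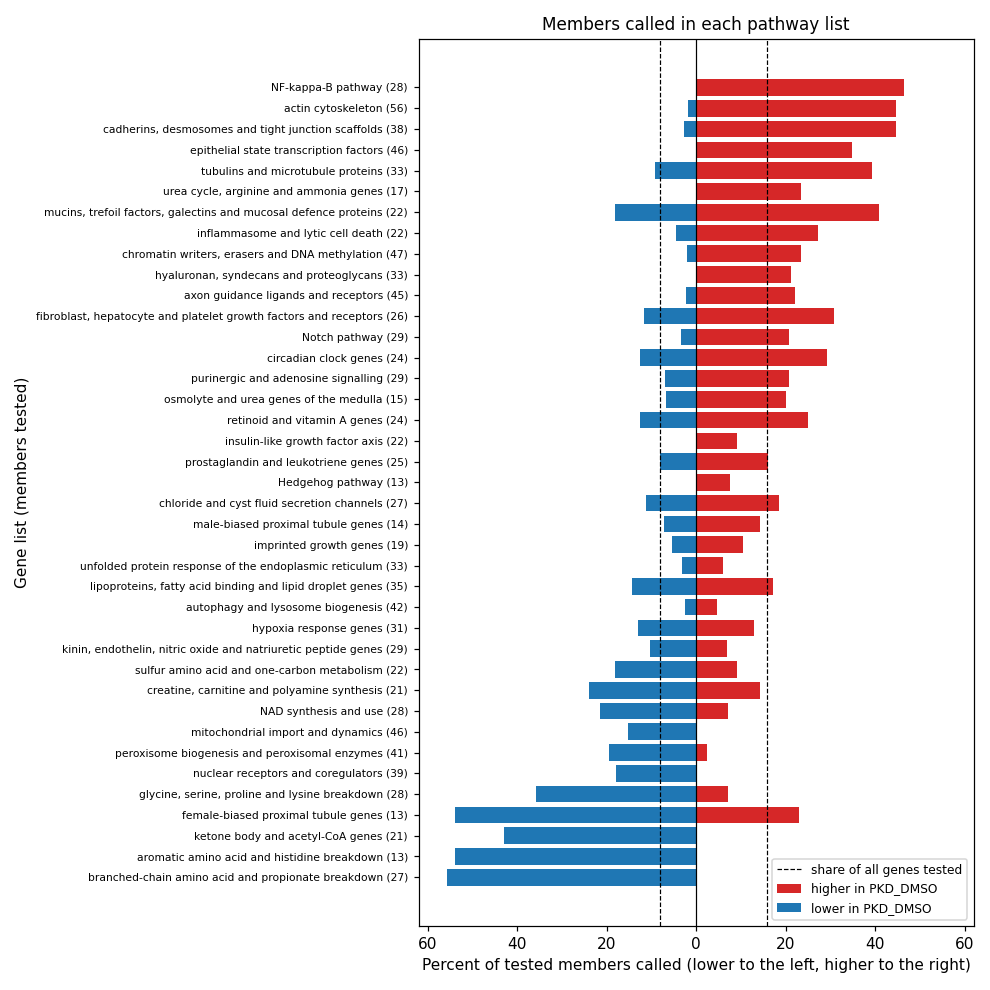
Percent of tested members that rose (red, to the right) or fell (blue, to the left) in each pathway list, with the number tested in brackets and dashed lines at the shares of all genes tested (15.9% rising, 8.05% falling). NF-kappa-B (46.4% rising) is at the top and branched-chain amino acid and propionate breakdown (55.6% falling) at the bottom.

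Marker lists of other cell types were summed in each library for comparison with the gene groups above. Markers of the thick ascending limb and distal convoluted tubule fell in 5 of 11 cases (45.5%, median −1.09), with a summed level of 2055 and 2229 FPKM in WT_DMSO and 1147 and 1102 in PKD_DMSO. That count was 4 and 5 without WT_DMSO replicate 1 or 2, 5 and 0 without PKD_DMSO replicate 1 or 2. Of 10 podocyte markers 2 fell, which was 0 with WT_DMSO replicate 1 or 2 left out, 0 without PKD_DMSO replicate 1 and 1 without PKD_DMSO replicate 2. Intercalated cell markers stood at a summed level of 395 and 363 FPKM in WT_DMSO and 196 and 123 in PKD_DMSO, and 6 of 10 fell. Principal cell markers had 0 of 10 called, with a sum of 1362 and 940.2 FPKM in WT_DMSO and 759.7 and 675 in PKD_DMSO. Thin limb markers had 4 of 8 rising and 1 falling. Neutrophil markers summed to 155 FPKM in PKD_DMSO replicate 1 and to between 11.03 and 23.1 FPKM in the other 3 libraries, and 0 of 6 tested were called. Of the sum in PKD_DMSO replicate 1, Ltf held 86.1 FPKM, S100a9 30.3 and S100a8 21.2, while Ly6g and Cxcr2 lay between their wild-type values. Lymphocyte markers stayed between 6.98 and 9.59 FPKM in sum. The falling intercalated count and the rising thin limb count were 4 and 3 when WT_DMSO replicate 1 was left out and 5 and 2 when replicate 2 was. They were 8 and 1 when PKD_DMSO replicate 1 was left out and 1 and 0 when replicate 2 was.

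**Figure D5:**
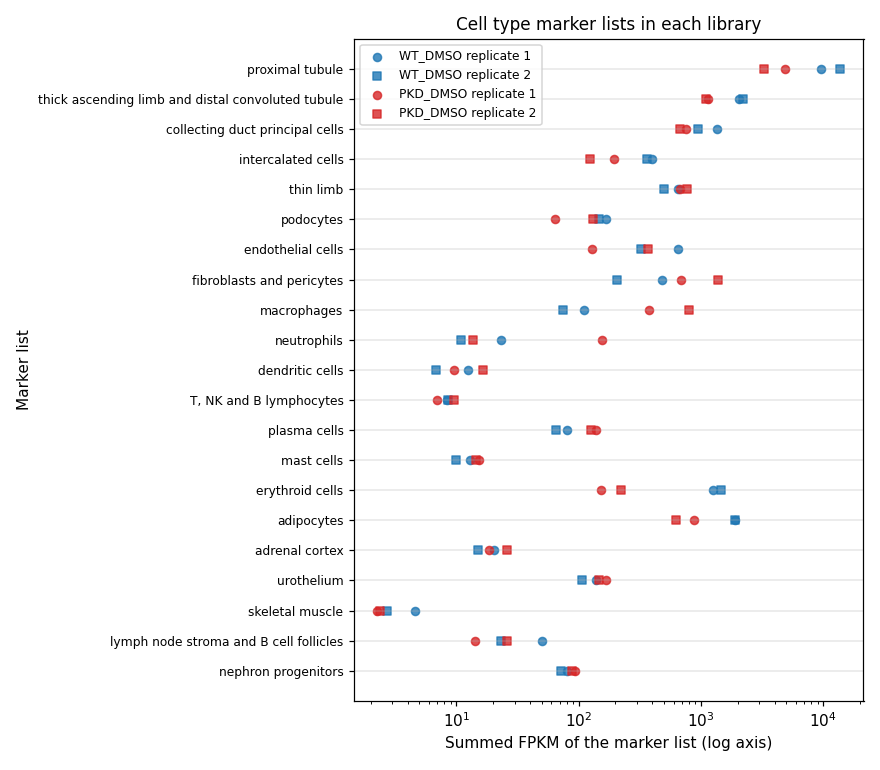
Summed FPKM of each cell type marker list in each of the 4 libraries, on a logarithmic horizontal axis (blue WT_DMSO, red PKD_DMSO, circle replicate 1, square replicate 2). Macrophage and fibroblast sums are higher in both PKD_DMSO libraries, proximal tubule, intercalated and erythroid sums are lower in both, and the neutrophil sum is high in PKD_DMSO replicate 1 alone.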

How the data were processed

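Poly(A)-selected RNA of whole kidney was sequenced, per the labels' protocols. The deposited values are taken as FPKM, rounded to 2 decimals. The file headers name no unit, so FPKM was inferred from the values: they are not whole numbers, and their steps shrink with transcript length. The build mm10 and the tools Bowtie2 and DESeq2 appear without role or version, per the submitters' processing notes. Which tool counted the reads is not stated in the sources used here. Of 20245 entries per library, 4 of 2 repeated symbols and 1 without a symbol were left out. RefSeq (GRCm38.p6) matched 20149 of 20240 symbols, 751 by an older symbol.

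Deposited FPKM were put on the log2(FPKM + 1) scale, and a gene was kept where 2 or more of the 4 vehicle libraries reached 1 FPKM. In limma 3.58.1 under R 4.3.3, a mean for each of 4 groups was estimated over the 8 libraries (empirical Bayes with trend and robust settings). Tests were two-sided, with Benjamini-Hochberg adjustment across the 13712 genes. The number of reads behind a value is known only from the steps, so no interval from counting was computed. The fit was tested on simulated data.

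Members and gene lists were chosen with earlier results of these data known. Genes were named by a rule: the 14 per direction with the largest fold change outside the best-known markers, the 10 per direction with the largest FPKM difference, up to 6 per direction and 3 not called in each list, genes listed at 0 in 1 genotype, the 8 flattest abundant genes, and sex-linked genes. Of these, full values are given mainly for genes whose call held in every alternative. Family members and the promoters shown were picked with their values in view. Some genes selected by this rule are not reported here, and the plots leave them out. Alternatives were another pseudocount, filter and scaling, vehicle libraries alone, a replicate block, and each library left out. Tables and plots were made with Python 3.11.15, pandas 2.3.3 and matplotlib 3.10.9.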

Additional observations from a re-analysis of the deposited data

How the results depend on the processing

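As reported, 2179 genes rose and 1104 fell. No gene called as reported was called in the opposite direction under any alternative. Counts stayed within 1.5 times with a pseudocount of 0.1, with no filter and with a mean FPKM of at least 5. Median-of-ratios scaling gave 1555 and 1440, quantile normalization 1733 and 1587, and the 4 vehicle libraries alone 1408 rising and 790 falling. With each library left out in turn, the rising count ran from 401 to 1105 and the falling count from 178 to 643. A pseudocount of 0.1 raised the genes past 4-fold from 260 to 495 rising and from 123 to 214 falling. Of 319 named genes called as reported, 206 lost their call without PKD_DMSO replicate 2, the most of any alternative, and 0 reversed.

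With the replicate number as a block, 1503 genes rose and 816 fell. Deviations of same-numbered WT_DMSO and PKD_DMSO libraries correlated at −0.20. Over all 6 pairs of groups r ran from −0.55 to 0.52 and was over 0.1 in 3, so pairing was not shown and the block was not used. With crossed pairing, an alternative chosen after seeing the data, 1353 rose and 668 fell. The cause of these differences was not tested.

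Values rest on 2 libraries a group, and genes near 0 FPKM rest on few reads, most of all in WT_DMSO replicate 1.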

Other observations

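Of 12 adipocyte markers 8 were higher in both PKD_DMSO libraries than in both wild-type libraries, where 42.2% of all genes tested were. The 8 include Plin1 and Lep, which did not pass the filter, so these shares are of unlike sets. The summed level of all 12 markers was lower, at 1884 and 1901 FPKM in WT_DMSO and 884 and 627 in PKD_DMSO. Most of that sum was Pck1 (1589 and 1780.0 to 714 and 359.9 FPKM), a gene of glucose synthesis that is also listed for the proximal tubule. Cfd, the adipokine complement factor D, was listed at 3.27 and 1.27 FPKM in WT_DMSO and 41.5 and 46.6 FPKM in PKD_DMSO, and Adipoq, the gene of adiponectin, at 0.46 and 0.25 FPKM in WT_DMSO and 4.59 and 7.4 FPKM in PKD_DMSO. Cidec and Retn, both of adipocytes, went from 0.25 and 0.32 to 4.18 and 5.17 FPKM and from 0.24 and 0.21 to 4.18 and 6.34 FPKM. The groups did not overlap for any of them, but none of these 4 was called, and all were picked with their values in view. With the 4 vehicle libraries alone, without the spread of the FP libraries, 6 of 9 tested adipocyte markers rose and 1 fell, against 1 and 0 as reported. Plin4, which coats lipid droplets, rose from 0.76 and 0.75 to 6.2 and 6.89 FPKM (2.10 ± 0.28, adjusted p = 0.00507). Lep, the defining hormone gene of white fat, was at or under 0.12 FPKM in all 4 libraries. Fabp4, another marker of the list, overlapped between the groups, at 281 and 111 FPKM in WT_DMSO and 96.3 and 181 in PKD_DMSO. The part of tissue around the kidney was not tested.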
